A study of Saccharomyces cerevisiae with 40 samples.

Results

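The comparison described here asks whether yeast of different genetic backgrounds answered the same change of medium in the same way, before any herbicide was added. It is the strain by medium interaction over the 20 untreated libraries of the 40 RNA-seq libraries of the series, 5 libraries in each of 4 groups. The groups are the S288c background strain GSY147, called S288c below, in WYF and in YM, and RM11, an agricultural vineyard isolate, in WYF and in YM. YM is minimal medium, and WYF is YM supplemented with the aromatic amino acids tryptophan, tyrosine and phenylalanine. All cells were harvested in mid-log phase and none of these 20 cultures received Cr41, the commercial glyphosate formulation that the other 20 libraries received for 90 min. For each gene the interaction is the log2 ratio of WYF to YM in S288c minus the log2 ratio of WYF to YM in RM11. A positive value means that the ratio was higher in S288c, and it can arise from a rise in S288c, a fall in RM11, or both. Each strain stands for 1 genetic background, and the labels do not say that replicates were separate cultures, so the p-values measure the spread between these libraries, which may be technical.

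Yeast takes up amino acids through a family of plasma membrane permeases with overlapping substrates. External amino acids are sensed by the Ssy1-Ptr3-Ssy5 (SPS) complex, which releases the transcription factors Stp1 and Stp2 to induce permease genes, while aromatic amino acids also act through the activator Aro80 on the genes of their breakdown by the Ehrlich pathway. Separate regulators govern the general stress genes (Msn2 and Msn4), the heat shock chaperones (Hsf1), iron uptake (Aft1 and Aft2) and the use of poor nitrogen sources (the GATA factors). These roles are background and were not measured here.

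Total estimated counts ran between 4224356 and 7866046 per untreated library, and all 4 groups overlapped in depth. The common biological coefficient of variation was 15% in S288c WYF, 11.7% in S288c YM, 10.2% in RM11 WYF and 7.02% in RM11 YM. The strain labels were checked on Ty retrotransposon transcripts, which summed to 69054 to 88216 CPM (counts scaled to library size) in S288c and 2858 to 4974 CPM in RM11. A set of 35 transcripts, chosen from these data by a mean of at least 50 CPM in S288c YM and under 1 CPM in RM11 YM, summed to 13570 to 19717 CPM in S288c WYF and 17377 to 20514 CPM in S288c YM, against 1.7 to 342 CPM in RM11 WYF and 1.5 to 11.9 CPM in RM11 YM. Of the 35, 22 are Ty transcripts, so the set overlaps the Ty check, and its YM contrast follows from the choice. The highest RM11 values, 342 CPM in WYF library 2 and 62.6 CPM in WYF library 1, were 1.88% and 0.343% of the S288c YM mean, so these 2 libraries carried reads of the set at low level, and the WYF values took no part in choosing it. The a-specific mating genes were expressed at similar levels in all 20 libraries (1350 to 1620 CPM summed), with little of the alpha-specific genes. Lane 2 of the sequencer held all YM libraries and lane 3 all WYF libraries. Within a strain the effects of lane and medium cannot be told apart, although a lane effect common to both strains cancels in the interaction.

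Of 5684 genes tested, 278 (4.89%) passed the threshold for the interaction, set at an adjusted p under 0.05 (edgeR's quasi-likelihood test, Benjamini-Hochberg adjustment over all genes tested) and an absolute log2 value of at least 1. The positive direction held 212 genes (3.73%) and the negative direction 66 (1.16%). The negative count depended on the libraries used, being 40 without RM11 WYF library 2, which left 218 positive, and 160 without replicate 4 of every group, which left 203 positive. The median interaction over all genes tested was 0.02, and 44.4% of them had an unadjusted p under 0.05. Within S288c 254 genes (4.47%) passed for the medium, 192 (3.38%) higher and 62 (1.09%) lower in WYF than in YM. Within RM11 122 (2.15%) passed, 41 (0.721%) higher and 81 (1.43%) lower.

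Most positive interactions came with a change in S288c. Of the 212 positive genes, 112 passed the threshold for the medium in S288c and not in RM11, 31 passed in RM11 and not in S288c, 10 passed in both strains in the same direction, and 55 passed in neither strain alone. In S288c 126 of the 212 rose in WYF and 0 fell, while in RM11 10 rose and 35 fell. In 4 genes, FIT2, SPI1, DUR3 and PHM8, the strains moved in opposite directions and both moves passed the threshold. Since the interaction is the difference of these strain values, the counts describe its makeup and add no separate test.

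**Figure D1:**
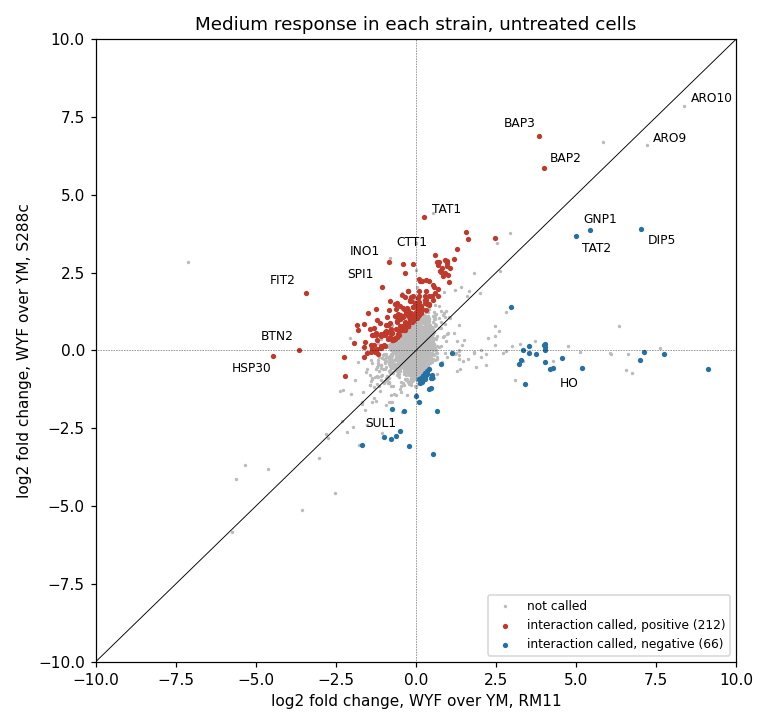
Log2 ratio of WYF to YM in RM11 (x axis) against S288c (y axis) for each of 5684 genes in untreated cells, with the 212 genes of positive interaction in red and the 66 of negative interaction in blue. Most red points lie above the diagonal at a positive S288c ratio, and the blue points below it.

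The permeases held some of the largest strain differences in both directions. Of 22 amino acid and peptide permease genes tested, 4 had a positive interaction (TAT1, BAP3, BAP2 and PTR2) and 4 a negative one (DIP5, GNP1, TAT2 and MMP1), against 3.73% and 1.16% of all genes. The list median was 0.51, beside 0.02 over all genes. By the same threshold 11 of the 22 rose in WYF in S288c, against 3.38% of all genes, and 9 in RM11, against 0.721%, while 0 fell in either strain. Below the fold threshold, WYF lay under YM without overlap for 2 of the 22 in S288c, GAP1 and MMP1, and for GAP1 in RM11. The promoters of a permease gene from each end of this range are shown first, because they bracket the list. CGGC, the core of the element bound by Stp1, was searched on both strands with overlaps counted, a motif chosen after the permease values had been seen. Sequences throughout are the S288c reference (R64, RefSeq), from 400 to 101 bases before the start codon, 5′ to 3′ along the coding strand. Capitals mark the motif, which the TAT1 window (chrII:378534-378833, minus strand) holds in 2 overlapping matches and the DIP5 window (chrXVI:40643-40942, plus strand) does not hold. The RM11 sequences were not analysed here.
TAT1: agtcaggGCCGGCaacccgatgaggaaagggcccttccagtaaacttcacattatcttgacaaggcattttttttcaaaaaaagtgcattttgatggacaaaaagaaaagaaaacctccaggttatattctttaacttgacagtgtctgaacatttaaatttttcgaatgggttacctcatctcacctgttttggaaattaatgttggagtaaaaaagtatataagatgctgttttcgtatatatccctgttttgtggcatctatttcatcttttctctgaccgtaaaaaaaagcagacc
DIP5: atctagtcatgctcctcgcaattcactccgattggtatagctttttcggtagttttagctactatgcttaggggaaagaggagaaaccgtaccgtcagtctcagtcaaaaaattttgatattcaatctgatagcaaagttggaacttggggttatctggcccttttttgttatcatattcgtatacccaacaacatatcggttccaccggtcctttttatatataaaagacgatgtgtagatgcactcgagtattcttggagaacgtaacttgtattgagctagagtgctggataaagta
These 4 letters occur in 53.6% of 5974 promoter windows and in 18 of the 22 permease windows, so a match describes little, and no match says only that the letters are not in this window.

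TAT1, a permease for branched-chain amino acids, tyrosine and tryptophan, had the third largest positive interaction among the genes named by the rule. It stood at 43.2, 37.9, 35.9, 31.1 and 37.7 CPM in S288c WYF, against 1.53, 2.33, 2.65, 1.4 and 1.41 CPM in S288c YM. In RM11 it stood at 5.11, 2.31, 1.82, 2.34 and 2.64 CPM in WYF, against 2.55, 2.56, 2.08, 2.86 and 1.55 CPM in YM. The S288c groups lay far apart and the RM11 groups overlapped. The log2 ratio of WYF to YM was 4.30 in S288c and 0.26 in RM11 (adjusted p = 0.55), an interaction of 4.03 ± 0.35 (SE; adjusted p = 3.5e-08). Its neighbour BAP2 lies on the same strand of chromosome II, with 884 bases between the coding sequences.

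BAP3 and BAP2, permeases for branched-chain amino acids, rose in both strains and rose more in S288c. BAP3 stood at 225, 229, 226, 287 and 236 CPM in S288c WYF against 1.22, 2.77, 3.6, 1.57 and 1.0 CPM in S288c YM. In RM11 its values were 164, 161, 151, 150 and 173 CPM in WYF against 9.68, 12.9, 16.9, 8.59 and 8.94 CPM in YM. The difference therefore lay mainly in YM, where RM11 was higher, and the interaction was 3.04 ± 0.28 (adjusted p = 6.5e-08). BAP2 differed in the other medium. In S288c it stood at 465, 412, 423, 433 and 408 CPM in WYF and 5.07 to 8.71 CPM in YM, and in RM11 at 126, 123, 105, 108 and 93.3 CPM in WYF and 6.62 to 7.62 CPM in YM. The YM groups of the strains overlapped for BAP2 while the WYF groups did not, and the interaction was 1.87 ± 0.16 (adjusted p = 3.5e-08). PTR2, the di- and tripeptide transporter, had similar WYF values (219 to 253 CPM in S288c, 194 to 242 CPM in RM11) and lower YM values in S288c (14.7 to 26.5 CPM) than in RM11 (33.8 to 46.9 CPM), with an interaction of 1.14.

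Of the 4 permeases with a negative interaction, DIP5, GNP1 and TAT2 rose in both strains and rose more in RM11. DIP5, the glutamate and aspartate permease, stood at 295, 303, 265, 351 and 299 CPM in S288c WYF against 18.5, 25.2, 19.5, 19.8 and 17.9 CPM in S288c YM. In RM11 it stood at 296, 290, 298, 315 and 239 CPM in WYF against 1.53, 3.23, 2.31, 2.04 and 1.55 CPM in YM. The WYF groups of the strains overlapped, and the YM groups differed, S288c being higher. The interaction was -3.13 ± 0.20 (adjusted p = 6.0e-10). GNP1, the high-affinity glutamine permease, was also higher in YM in S288c (15.7 to 34.7 CPM) than in RM11 (1.19 to 7.22 CPM), with an interaction of -1.58 ± 0.35. TAT2, the high-affinity tryptophan and tyrosine permease, had nearby WYF values (95 to 121 CPM in S288c, 80.5 to 114 CPM in RM11) and higher YM values in S288c (6.99 to 11.9 CPM) than in RM11 (2.54 to 3.5 CPM), with an interaction of -1.32 ± 0.21. MMP1, the S-methylmethionine permease, was lower in WYF than in YM in S288c (11.5 to 17.2 CPM against 20.1 to 28.0 CPM) while its RM11 groups overlapped (23.5 to 27.7 CPM in WYF against 18.3 to 24.1 CPM in YM), with an interaction of -1.1. PTR2, MMP1, AGP1 and GAP1, the general amino acid permease, were named after their values had been seen. On the log2(TPM + 1) scale, which compresses low values, GNP1 (-0.92) and TAT2 (-0.73) no longer reached the fold threshold and DIP5 lay at -2.05.

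AGP1, a low-affinity permease of broad range, rose in both strains and did not pass for the interaction. It stood at 2675, 2583, 2477, 1997 and 2815 CPM in S288c WYF against 19.8 to 33.0 CPM in S288c YM, and at 1661 to 1789 CPM in RM11 WYF against 26.2 to 34.4 CPM in RM11 YM. Its interaction was 0.87, short of the fold threshold. Of the 5 genes of the SPS sensor and its transcription factors, 0 passed the interaction threshold in edgeR, DESeq2 or limma, and 0 had an unadjusted p under 0.05, against 4.89% and 44.4% of all genes. With 5 genes a count of 0 called is near the background.

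**Figure D2:**
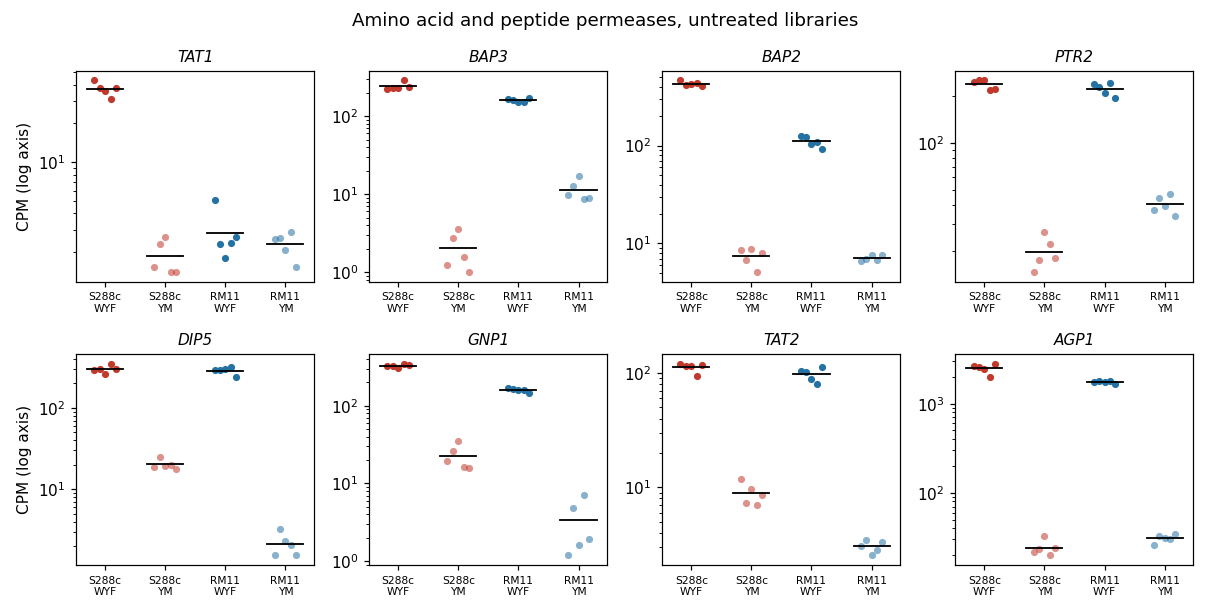
CPM per library on a log scale for TAT1, BAP3, BAP2, PTR2, DIP5, GNP1, TAT2 and AGP1, with S288c WYF, S288c YM, RM11 WYF and RM11 YM from left to right, 5 libraries each. TAT1 is high in S288c WYF only, while DIP5 has similar WYF values in both strains and lower YM values in RM11.

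ARO9 and ARO10 rose strongly in both strains, and no gene of aromatic amino acid synthesis reached the threshold. ARO9, the second aromatic aminotransferase, and ARO10, the phenylpyruvate decarboxylase of the Ehrlich pathway, are targets of Aro80. Their windows are shown because they hold 5 and 4 matches, overlaps included, of CCG followed after 7 bases by CCG, a spaced pair bound by Aro80 that occurs in 3.97% of all promoter windows on either strand. Capitals mark the matches in ARO9 (chrVIII:375309-375608, plus strand) and ARO10 (chrIV:1233818-1234117, plus strand).
ARO9: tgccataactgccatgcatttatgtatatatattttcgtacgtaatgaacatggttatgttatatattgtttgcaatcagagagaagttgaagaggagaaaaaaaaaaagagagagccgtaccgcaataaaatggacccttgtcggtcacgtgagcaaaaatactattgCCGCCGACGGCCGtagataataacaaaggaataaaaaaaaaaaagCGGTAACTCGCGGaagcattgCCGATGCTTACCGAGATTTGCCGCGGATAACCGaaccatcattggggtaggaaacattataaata
ARO10: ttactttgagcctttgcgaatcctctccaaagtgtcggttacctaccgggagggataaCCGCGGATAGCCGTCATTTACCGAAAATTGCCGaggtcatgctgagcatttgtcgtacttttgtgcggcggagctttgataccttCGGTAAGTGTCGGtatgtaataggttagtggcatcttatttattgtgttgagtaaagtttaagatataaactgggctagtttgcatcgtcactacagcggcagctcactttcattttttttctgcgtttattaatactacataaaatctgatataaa
ARO9 stood at 311, 316, 310, 261 and 283 CPM in S288c WYF against 1.37 to 6.44 CPM in S288c YM, and at 230, 260, 260, 285 and 228 CPM in RM11 WYF against 1.15 to 2.18 CPM in RM11 YM. Its log2 ratios of 6.6 in S288c and 7.20 in RM11 gave an interaction of -0.60 ± 0.38 (adjusted p = 0.23). ARO10 stood at 171 to 211 CPM in S288c WYF against 0 to 2.08 CPM in S288c YM, and at 189 to 248 CPM in RM11 WYF against 0.389 to 0.849 CPM in RM11 YM. Its interaction was -0.52 ± 0.72 (adjusted p = 0.62), with few reads behind the YM values. These tests did not detect a strain difference in either gene, and the errors allow differences of moderate size.

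Of 12 genes of aromatic amino acid biosynthesis, 0 passed the interaction threshold in edgeR, DESeq2 or limma (median 0.11), while 6 had an unadjusted p under 0.05, both near the 4.89% and 44.4% of all genes. For the medium 0 passed in either strain in edgeR, with an unadjusted p under 0.05 in 7 of the 12 in S288c and 6 in RM11, against 54.6% and 30.4% of all genes. Short of the threshold, WYF lay under YM without overlap for 2 of the 12 in S288c and 6 in RM11, and above it for 0. Groups without overlap in either direction made up 27% and 17.5% of all genes. ARO1, the pentafunctional shikimate enzyme, had an interaction of 0.23, ARO2 (chorismate synthase) -0.05, and the DAHP synthases ARO3 and ARO4 0.10 and 0.12. In the tryptophan branch TRP1, TRP2, TRP3, TRP4 and TRP5 lay at -0.26, 0.19, 0.36, -0.22 and 0.24. The chorismate mutase ARO7 lay at -0.26, and PHA2 and TYR1, of the phenylalanine and tyrosine branch, at 0.04 and 0.12. TRP3 was the farthest from 0, at 84.0, 80.6, 79.5, 73.0 and 88.1 CPM in S288c WYF and 74.4 to 86.2 CPM in S288c YM, against 84.4 to 88.1 CPM in RM11 WYF and 102 to 116 CPM in RM11 YM. Its adjusted p was 0.0018, at a size well under the fold threshold.

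Among the 12 genes of aromatic transamination and catabolism, 2 passed with a positive interaction, against 3.73% of all genes, both encoding minor isozymes of pyruvate decarboxylase. PDC6 stood at 14.5, 12.9, 15.8, 13.1 and 20.3 CPM in S288c WYF against 1.61 to 3.79 CPM in S288c YM, and at 2.12 to 4.1 CPM in RM11 WYF against 3.77 to 4.86 CPM in RM11 YM. The S288c groups did not overlap, and the interaction was 2.81 ± 0.29 (adjusted p = 2.8e-07). PDC5 stood at 21.8, 14.1, 14.6, 8.8 and 51.3 CPM in S288c WYF against 9.44 to 15.4 CPM in S288c YM, groups that overlap, and its interaction of 1.69 ± 0.42 fell to 1.10 without S288c WYF library 5. The remaining 8 members beside ARO9 and ARO10 had smaller values. They were the aminotransferase ARO8 (0.02), the activator ARO80 (-0.04), the alcohol dehydrogenases SFA1 (0.58), ADH4 (0.71) and ADH5 (0.81), the acetyltransferases ATF1 (0.75) and ATF2 (0.50), and the weak-acid exporter PDR12 (0.51). ADH5 was the member that fell in RM11, at 46.4 to 52.3 CPM in WYF against 97.0 to 117 CPM in YM. BNA2, the dioxygenase that opens the tryptophan ring for NAD synthesis, was the 1 called gene of 10 in that pathway, a count near the 3.73% of all genes for so short a list. It stood at 11.7 to 17.9 CPM in S288c WYF against 5.39 to 10.4 CPM in S288c YM, and at 37.6 to 47.4 CPM in RM11 WYF against 54.9 to 67.4 CPM in RM11 YM, an interaction of 1.49 ± 0.19. BNA2 overlaps the reading frame YJR079W, so its reads may be shared with it.

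The general stress genes had a higher ratio of WYF to YM in S288c throughout. All 22 genes tested of trehalose, glycogen and general stress had a positive interaction and 15 passed the threshold, against 3.73% of all genes, with a list median of 1.25 beside 0.02 over all genes. In S288c, WYF lay above YM with no overlap for 21 of the 22, against 27% of all genes whose S288c media groups did not overlap in either direction. In RM11, 11 lay above and 2 below without overlap, against 17.5% of all genes in either direction. The summed level of the list was 9089 to 11272 CPM in S288c WYF and 2427 to 4296 CPM in S288c YM, against 8025 to 9780 CPM in RM11 WYF and 7014 to 8185 CPM in RM11 YM. Of the 4 groups, S288c in YM was therefore the low one, and the RM11 groups stood close to each other.

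The stress response element AGGGG, bound by Msn2 and Msn4, was found on either strand in 19 of these 22 promoter windows and in 23.6% of all windows. It was also found in 123 of the 210 positive genes with a window (58.6%) and in 5 of the 57 negative ones (8.77%). A match is a description of sequence and not of binding. The windows of CTT1 (chrVII:654234-654533, plus strand) and SPI1 (chrV:467970-468269, plus strand) are shown as examples with 3 matches each in capitals, CCCCT being the same motif read on the other strand.
CTT1: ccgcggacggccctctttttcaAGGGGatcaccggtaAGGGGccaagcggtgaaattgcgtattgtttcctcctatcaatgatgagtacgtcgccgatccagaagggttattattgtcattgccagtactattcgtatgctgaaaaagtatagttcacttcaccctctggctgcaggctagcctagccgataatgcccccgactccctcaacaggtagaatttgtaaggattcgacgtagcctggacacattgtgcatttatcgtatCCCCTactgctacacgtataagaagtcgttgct
SPI1: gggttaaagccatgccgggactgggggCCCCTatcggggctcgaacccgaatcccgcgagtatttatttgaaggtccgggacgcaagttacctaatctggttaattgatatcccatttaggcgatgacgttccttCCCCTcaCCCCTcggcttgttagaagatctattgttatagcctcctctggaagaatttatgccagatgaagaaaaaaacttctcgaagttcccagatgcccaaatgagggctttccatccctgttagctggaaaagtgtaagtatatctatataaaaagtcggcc
CTT1 encodes cytosolic catalase. It stood at 251, 212, 239, 249 and 190 CPM in S288c WYF against 19.6, 36, 28.8, 36.7 and 15.1 CPM in S288c YM, and at 330, 306, 317, 333 and 286 CPM in RM11 WYF against 228, 218, 208, 208 and 180 CPM in RM11 YM. It was higher in WYF in both strains without overlap, by a log2 ratio of 3.06 in S288c and 0.59 in RM11, an interaction of 2.47 ± 0.21 (adjusted p = 2.5e-08). SPI1, a cell wall protein induced in stress and stationary phase, moved in opposite directions. It stood at 201, 188, 179, 192 and 170 CPM in S288c WYF against 33.3 to 51.7 CPM in S288c YM, and at 65.5 to 88.5 CPM in RM11 WYF against 178, 189, 183, 170 and 120 CPM in RM11 YM. The groups did not overlap in either strain, and the interaction was 3.09 ± 0.17 (adjusted p = 8.7e-11).

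Other called members of the list are described here, a larger ratio in S288c than in RM11 being part of a positive call. ALD3, an aldehyde dehydrogenase, stood at 1354 to 1797 CPM in S288c WYF against 156 to 254 CPM in S288c YM, and at 482 to 574 CPM in RM11 WYF against 275 to 377 CPM in RM11 YM, an interaction of 2.13 ± 0.17. TKL2, the minor transketolase, had log2 ratios of 3.27 in S288c and 1.27 in RM11, an interaction of 2.0 ± 0.19. GRE1, a hydrophilin of osmotic and drying stress, had log2 ratios of 3.59 in S288c and 1.64 in RM11, an interaction of 1.95 ± 0.20. YGP1, a secreted glycoprotein of nutrient limitation, lay at 878 to 922 CPM in S288c WYF against 131 to 234 CPM in S288c YM, and at 466 to 594 CPM in RM11 WYF against 383 to 454 CPM in RM11 YM, an interaction of 1.96 ± 0.15. In RM11 the YGP1 groups stayed apart by a narrow margin and the medium did not pass the test (log2 ratio 0.30). For each of these genes the lowest group was S288c in YM.

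**Figure D3:**
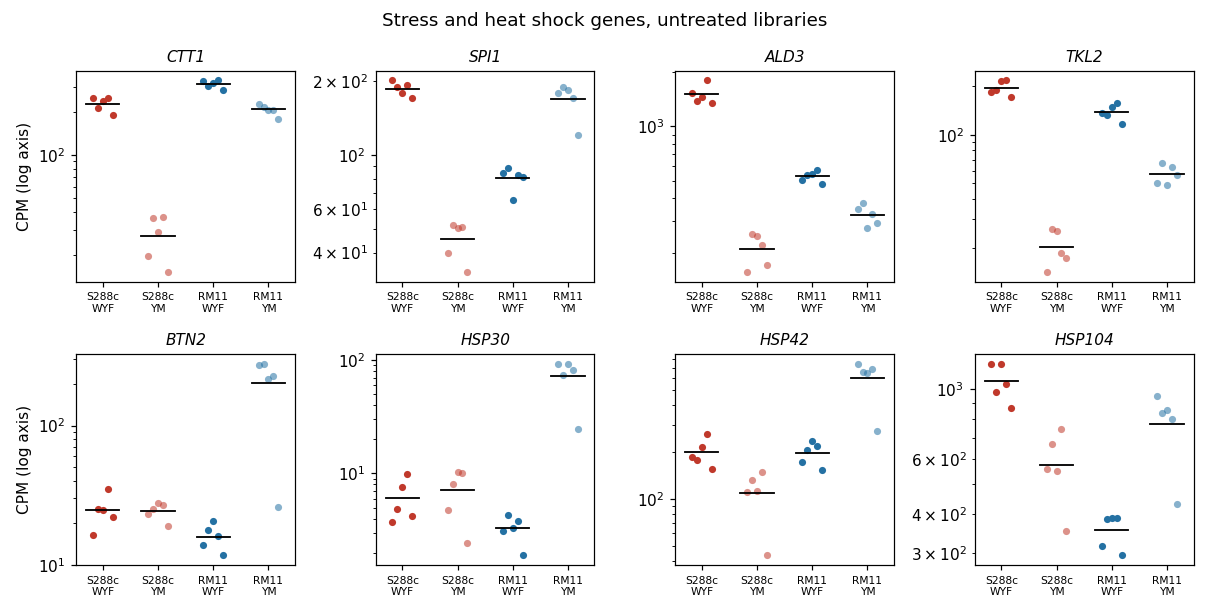
CPM per library on a log scale for CTT1, SPI1, ALD3, TKL2, BTN2, HSP30, HSP42 and HSP104, with S288c WYF, S288c YM, RM11 WYF and RM11 YM from left to right, 5 libraries each. In the general stress genes S288c YM is the low group, while in BTN2, HSP30 and HSP42 RM11 YM is the high group, its library 5 lying below the other 4.

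Heat shock chaperones also had higher ratios in S288c, but with a fall in RM11 in several members. All 20 genes tested had a positive interaction, against 2943 of all 5684 genes, and 11 passed the threshold, against 3.73% of all genes (median 1.13). In S288c 5 rose, against 3.38% of all genes, and 0 fell, and in RM11 0 rose and 5 fell, against 1.43% of all genes. The summed level was 20335 to 22795 CPM in S288c WYF and 13366 to 15485 CPM in S288c YM, against 10655 to 11584 CPM in RM11 WYF and 10445 to 14115 CPM in RM11 YM. The RM11 media overlapped in this sum through YM library 5 (10445 CPM), since the other 4 YM libraries, at 12881 to 14115 CPM, lay above all 5 WYF libraries. The heat shock element, searched on both strands as TTC, GAA and TTC with 2 bases between each, was found in 11 of the 20 promoter windows against 1.1% of all, and AGGGG in 8. HSP42, which encodes a small heat shock protein, is shown (chrIV:806221-806520, plus strand) with 3 AGGGG matches in capitals. Its window also holds the heat shock element, left in lower case (ttctggaaggttc). The windows of HSP30 and BTN2, described below, hold 0 AGGGG matches.
HSP42: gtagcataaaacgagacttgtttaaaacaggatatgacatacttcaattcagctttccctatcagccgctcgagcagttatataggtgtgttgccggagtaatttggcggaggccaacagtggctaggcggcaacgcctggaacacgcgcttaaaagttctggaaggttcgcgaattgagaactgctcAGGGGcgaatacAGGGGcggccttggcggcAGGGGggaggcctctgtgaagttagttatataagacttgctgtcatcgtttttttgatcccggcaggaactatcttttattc
HSP42 stood at 186, 178, 217, 262 and 156 CPM in S288c WYF against 111, 133, 112, 150 and 43.2 CPM in S288c YM. In RM11 it stood at 173, 205, 237, 218 and 154 CPM in WYF against 744, 658, 647, 689 and 273 CPM in YM. WYF lay above YM in S288c and below it in RM11 without overlap, RM11 YM being the high group, and the interaction was 2.47 ± 0.36 (adjusted p = 3.3e-05).

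In 2 genes of the chaperone list the media groups were apart in RM11 and not in S288c. HSP30, a plasma membrane protein that acts on the proton pump Pma1, stood at 3.74 to 9.97 CPM in S288c WYF and 2.41 to 10.4 CPM in S288c YM, against 1.89 to 4.29 CPM in RM11 WYF and 92.7, 73.9, 93.3, 81.2 and 24.7 CPM in RM11 YM. BTN2, which sorts misfolded proteins into deposits, stood at 16.4 to 34.8 CPM in S288c WYF and 18.9 to 27.8 CPM in S288c YM, against 11.7 to 20.6 CPM in RM11 WYF and 271, 278, 214, 226 and 26.2 CPM in RM11 YM. S288c groups overlapped for both genes, and the interactions were 4.26 ± 0.57 (adjusted p = 1.1e-05) and 3.69 ± 0.56 (adjusted p = 4.9e-05). Library 5 of RM11 YM was low for HSP30, BTN2, HSP42 and HSP104 together. Without it the interactions were 3.94 for BTN2, 2.63 for HSP42, 4.45 for HSP30 and 2.13 for HSP104, and the list count stayed at 11. HSP104, the disaggregase, was higher in WYF in S288c and lower in WYF in RM11. It stood at 867 to 1205 CPM in S288c WYF against 354 to 747 CPM in S288c YM, and at 295 to 389 CPM in RM11 WYF against 431 to 952 CPM in RM11 YM, an interaction of 2.01 ± 0.26.

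HSP26, a small heat shock protein, and SSA4, a stress-induced Hsp70, rose in S288c. HSP26 stood at 1247 to 1647 CPM in S288c WYF against 300 to 494 CPM in S288c YM, while RM11 held far less, 21.7, 58.4, 16.8, 13.8 and 10.8 CPM in WYF against 12.6 to 27.7 CPM in YM. Its interaction was 1.82 ± 0.42 with every library and 2.43 without RM11 WYF library 2, the RM11 library with the most reads of the S288c transcript set. SSA4 stood at 197 to 275 CPM in S288c WYF against 81.7 to 116 CPM in S288c YM, and at 31.9 to 46.2 CPM in RM11 WYF against 42.2 to 73.7 CPM in RM11 YM, an interaction of 1.75 ± 0.19.

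The genes of iron uptake fell in WYF in RM11 in several cases, and few of them passed in S288c. Of 19 genes tested, 6 passed with a positive interaction, against 3.73% of all genes, and 0 with a negative one (median 0.67). In RM11 7 fell, against 1.43% of all genes, and 0 rose, and in S288c 2 rose, against 3.38%, and 0 fell. GCACCC, bound by Aft1, was found on either strand in 13 of the 19 promoter windows and in 5 of the 6 called members, against 4.84% of all windows. The windows of FIT2 (chrXV:1059131-1059430, plus strand) and FIT3 (chrXV:1061156-1061455, minus strand) are shown because they hold 4 and 3 matches, in capitals, GGGTGC being the other strand.
FIT2: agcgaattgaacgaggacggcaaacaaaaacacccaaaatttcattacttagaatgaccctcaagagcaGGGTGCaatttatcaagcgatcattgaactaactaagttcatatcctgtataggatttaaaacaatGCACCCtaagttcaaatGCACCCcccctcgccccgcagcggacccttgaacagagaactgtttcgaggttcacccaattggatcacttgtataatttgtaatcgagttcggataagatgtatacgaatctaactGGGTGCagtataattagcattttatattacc
FIT3: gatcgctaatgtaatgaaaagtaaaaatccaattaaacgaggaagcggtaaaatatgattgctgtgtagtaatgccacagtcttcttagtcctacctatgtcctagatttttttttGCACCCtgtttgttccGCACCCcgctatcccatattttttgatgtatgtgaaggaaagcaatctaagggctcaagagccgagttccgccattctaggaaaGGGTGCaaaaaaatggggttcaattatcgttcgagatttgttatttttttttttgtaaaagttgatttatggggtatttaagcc
Both encode mannoproteins of the cell wall that retain siderophore iron. FIT2 stood at 8.88, 4.86, 8.19, 4.01 and 5.73 CPM in S288c WYF against 1.83, 2.62, 1.52, 1.92 and 0.602 CPM in S288c YM, and at 1.55, 2.97, 4.84, 6.74 and 4.91 CPM in RM11 WYF against 44.2, 40.4, 49.6, 40.3 and 56.9 CPM in RM11 YM. It rose in S288c and fell in RM11 without overlap, and its interaction of 5.28 ± 0.43 (adjusted p = 1.4e-08) was the largest positive one among the named genes. FIT3 stood at 15.0 to 26.3 CPM in S288c WYF against 9.64 to 15.5 CPM in S288c YM, and at 28.4 to 44.2 CPM in RM11 WYF against 115 to 153 CPM in RM11 YM, an interaction of 2.66 ± 0.23.

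The other called iron genes followed RM11 as well, with an exception. TIS11, which directs decay of mRNAs for iron-using proteins, stood at 12.4 to 23.2 CPM in RM11 WYF against 62.1 to 76.6 CPM in RM11 YM and overlapped between media in S288c, with an interaction of 2.19 ± 0.26. ARN1, a siderophore transporter, stood at 46.3 to 73.1 CPM in RM11 WYF against 122 to 141 CPM in RM11 YM (interaction 1.76 ± 0.22), and FRE1, a ferric and cupric reductase, at 14.8 to 28.5 CPM against 36.3 to 48.1 CPM (interaction 1.53 ± 0.25). The exception was SIT1, the ferrioxamine transporter, which was higher in WYF in both strains. It stood at 143, 77.2, 128, 69.2 and 109 CPM in S288c WYF against 15.7 to 21.3 CPM in S288c YM, and at 104 to 161 CPM in RM11 WYF against 62.3 to 92.3 CPM in RM11 YM, an interaction of 1.57 ± 0.25. CTR1, the high-affinity copper transporter and the 1 called gene of 7 in the copper list, had an interaction of 1.58 ± 0.26, being lower in WYF in RM11 without overlap (11.6 to 24.9 CPM against 29.7 to 40.9 CPM).

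Genes for poor nitrogen sources fell in both strains in many cases. Of 28 tested, 9 fell in S288c and 11 fell in RM11, against 1.09% and 1.43% of all genes, and 3 had a positive interaction, against 3.73% of all genes, with a list median of 0.02. DAL80, a GATA repressor, stood at 19.9 to 28.0 CPM in S288c WYF against 227 to 299 CPM in S288c YM, and at 13.6 to 20.7 CPM in RM11 WYF against 124 to 138 CPM in RM11 YM. MEP2, the high-affinity ammonium permease, stood at 321 to 352 CPM in S288c WYF against 2034 to 2304 CPM in S288c YM, and at 144 to 167 CPM in RM11 WYF against 946 to 1150 CPM in RM11 YM. Neither reached the threshold for the interaction (-0.42 and 0.11), and both were named after their values had been seen. The called genes were DUR3, the urea and polyamine permease, and UGA1 and UGA2, which break down gamma-aminobutyrate. DUR3 stood at 256 to 335 CPM in S288c WYF against 82.8 to 158 CPM in S288c YM, and at 32.1 to 37.6 CPM in RM11 WYF against 73.0 to 88.4 CPM in RM11 YM, moving in opposite directions without overlap (interaction 2.56 ± 0.19, adjusted p = 4.5e-09). UGA1 and UGA2 had interactions of 1.11 ± 0.12 and 1.19 ± 0.13.

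Several single genes of metabolism differed strongly. INO1, the enzyme that makes inositol phosphate, differed in both strains. It stood at 710, 717, 650, 470 and 848 CPM in S288c WYF against 90.6, 90.1, 79.9, 101 and 108 CPM in S288c YM, and at 4038, 4277, 3966, 4100 and 5199 CPM in RM11 WYF against 7800, 7309, 7848, 7397 and 8770 CPM in RM11 YM. All 4 groups were separate, and the interaction was 3.71 ± 0.17 (adjusted p = 3.8e-12). PHM8, a phosphatase of lysophosphatidic acid and nucleotides, moved in opposite directions, at 72.9 to 141 CPM in S288c WYF against 27.1 to 52.8 CPM in S288c YM, and 12.5 to 22.8 CPM in RM11 WYF against 34.2 to 65.1 CPM in RM11 YM (interaction 2.67 ± 0.30). ROQ1, which adapts protein degradation to stress, fell in RM11, at 4.65 to 12.1 CPM in WYF against 10.5 to 34.1 CPM in YM (interaction 2.48 ± 0.44), its RM11 YM library 5 being the low one. SUL1, a sulfate permease, had a negative interaction of -1.57 ± 0.14. It stood at 40.7 to 61.2 CPM in S288c WYF against 148 to 212 CPM in S288c YM, and at 91.1 to 114 CPM in RM11 WYF against 128 to 139 CPM in RM11 YM.

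Other lists held 1 to 3 called members, against 3.73% positive and 1.16% negative of all genes. Counts this small are given gene by gene and not read as results about the lists. In the list of sulfate and methionine genes, 1 of 25 passed in each direction, SUL1 and STR3 (cystathionine beta-lyase, 1.12), the call of STR3 being lost without S288c WYF library 3 (0.99). In that of thiamine and vitamin B6, 2 of 19 were positive, SNO1 (1.84) and THI20 (1.17), and SNO1 had 1.42 to 1.98 CPM in S288c WYF and 0.175 to 0.611 CPM in S288c YM. HXT5, a hexose transporter of slow growth, was 1 of 11 and stood at 47.6 to 81.6 CPM in S288c WYF against 7.03 to 16.5 CPM in S288c YM, and at 41.9 to 59.7 CPM in RM11 WYF against 22.9 to 34.2 CPM in RM11 YM (1.55). QCR9, a subunit of respiratory complex III, was 1 of 32 (1.06) and fell short without RM11 WYF library 3 (0.99). In the cell wall list 3 of 38 were positive, among them SPI1, NCA3 (1.75) and PIR3 (1.73). SED1, a structural protein of the cell wall, stood at 65483 to 84205 CPM in S288c WYF against 34566 to 42187 CPM in S288c YM, and at 65814 to 70570 CPM in RM11 WYF against 48557 to 53236 CPM in RM11 YM, with an interaction of 0.53 ± 0.10. PDR5, a multidrug exporter, had an interaction of 0.23 ± 0.11 (adjusted p = 0.11).

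The lists of arginine, histidine, lysine and branched-chain amino acid biosynthesis, general amino acid control, serine and one-carbon metabolism, purine synthesis, phosphate, zinc, ergosterol, mating, cell cycle, histones and multidrug transport had 0 called members for the interaction in edgeR, DESeq2 or limma, against 4.89% of all genes in edgeR. Of their 174 genes tested, 85 had an unadjusted p under 0.05, against 44.4% of all genes. The lists differed in this share, from 1 of 8 histone genes to 7 of 7 genes of multidrug transport. Their medians lay between -0.15 and 0.38.

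**Figure D4:**
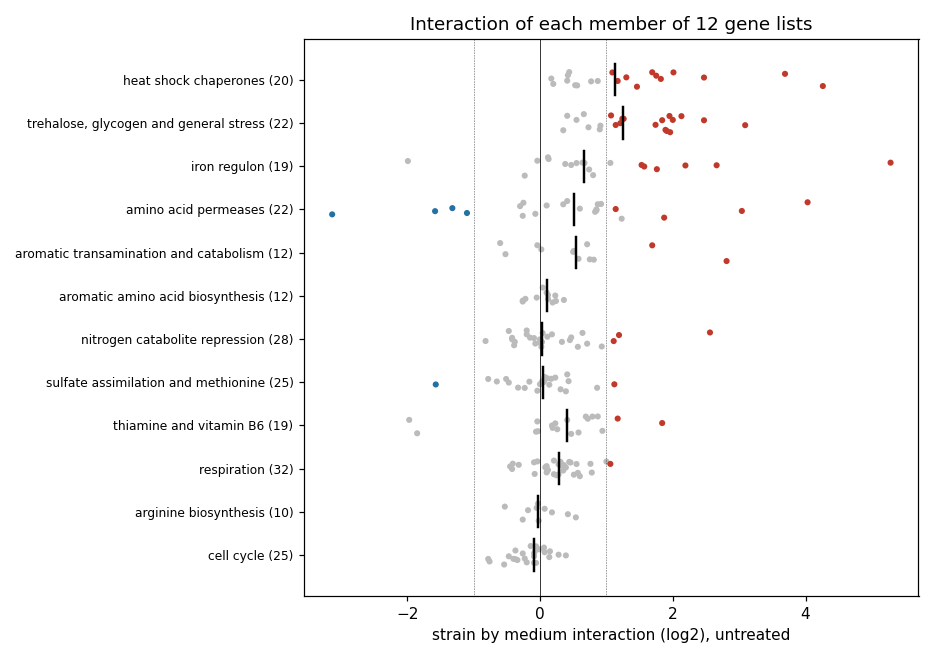
Interaction (log2) of each tested gene in 12 gene lists, with the list median as a bar and called genes filled. All heat shock and general stress genes lie to the positive side of 0, while the permeases spread to both sides.

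Negative interactions in a functional group were found in ribosome biogenesis, a list added, like the genes named from it, after the called genes had been seen. Of 175 genes tested, 163 had a negative interaction, against 2741 of all 5684 genes. Of the 175, 19 passed the threshold in the negative direction, against 1.16% of all genes, and 0 were positive calls. The median was -0.58. NOP16 averaged 30.3 CPM in S288c WYF against 71.9 CPM in S288c YM, and 26.7 CPM in RM11 WYF against 19.3 CPM in RM11 YM (interaction -1.68 ± 0.46, adjusted p = 0.0075). BFR2 averaged 77.6 CPM in S288c WYF against 143 CPM in S288c YM, and 32.3 CPM in RM11 WYF against 23.3 CPM in RM11 YM (-1.35 ± 0.21). EBP2 had an interaction of -1.18 and UTP14 of -1.05. All 4 act in the making of ribosomal subunits in the nucleolus. The count depended on single libraries, being 11 without S288c WYF library 1, 29 without S288c WYF library 5, 12 without S288c YM library 1, 10 without S288c YM library 5 and 12 without RM11 WYF library 2. It was 5 without replicate 1 of every group, 11 without replicate 3, 46 without replicate 4, and 38 without the 4 libraries that stood apart, a set chosen after seeing the data (RM11 WYF 1 and 2, RM11 YM 5 and S288c WYF 4), with medians between -0.73 and -0.50 over these settings. In limma it was 12. The 131 cytosolic ribosomal protein genes had 0 calls in edgeR, DESeq2 or limma, against 4.89% of all genes in edgeR, and a median of -0.22. An unadjusted p under 0.05 was found in 64, a share near the 44.4% of all genes. The interaction was negative in 115 of them, against 2741 of all 5684 genes.

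Many of the other negative calls concerned transcripts with few or no reads in RM11. Of the 66 negative genes, 21 had RM11 means under 5% of those of S288c in both media, and 12 were reading frames of Ty retrotransposons. A near-identical copy that can share reads was found for 18, while 9 have no R64 entry and were not searched for copies. HO, the mating-type switching endonuclease, stood at 45.0 to 57.7 CPM in S288c WYF against 69.1 to 84.5 CPM in S288c YM. In RM11 it stood at 0.31, 1.49, 0.151, 0 and 0 CPM in WYF against 0 CPM in all 5 YM libraries. The genes R0010W, R0020C and R0040C of the yeast plasmid, and the genes NFT1, BDS1 and ASP3-1, behaved likewise, with RM11 WYF library 2 the highest RM11 library for each. R0020C, for example, stood at 327 to 418 CPM in S288c WYF against 507 to 563 CPM in S288c YM, and at 2.32, 8.42, 0.303, 0 and 0 CPM in RM11 WYF against 0 to 0.231 CPM in RM11 YM. ASP3-1, the cell wall asparaginase, fell in S288c, at 64.6 to 97.2 CPM in WYF against 645 to 894 CPM in YM, and its RM11 values were 0 to 2.31 CPM in WYF against 0 to 1.62 CPM in YM. No fold is given for these genes in RM11. With RM11 WYF libraries 1 and 2 left out, a choice made after the data had been seen, 251 genes passed, 208 positive and 43 negative. Of the original calls, 193 of the 212 positive and 35 of the 66 negative genes were among them.

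The remaining large negative values were in short reading frames, of which 3 have no entry in the R64 annotation used here. Those 3 were not searched for near-identical copies. YLL066W-B (chrXII:5605-5775) stood at 9.04, 19.2, 12.3, 27.8 and 35.5 CPM in S288c WYF against 132, 150, 137, 75.5 and 129 CPM in S288c YM, and at 24.6 to 35.1 CPM in RM11 WYF against 39.0 to 44.7 CPM in RM11 YM. Its interaction was -2.10 ± 0.34. YNL338W, YDR544C and YHR217C had interactions of -2.13, -2.07 and -1.79, and all 4 were lower in WYF without overlap in S288c. In S288c WYF the same libraries, 4 and 5, were the highest for all 4 frames, and in S288c YM library 4 was the lowest.

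The same contrast in Cr41-treated cells, in 20 other libraries, gave 514 called genes of 5722 tested (8.98%), 230 positive (4.02%) and 284 negative (4.96%). The balance of directions depended on the method, with 56.9% of calls positive in limma on log2(TPM + 1), against 44.7% here. The source labels and the paper's methods give the dose as 0.25% Cr41, while the paper's results give it as 0.25% glyphosate. Of the 212 genes positive without Cr41, 158 had the same sign in treated cells, where 2977 of all 5722 genes were positive. Of the 212, 52 passed the threshold in the same direction and 14 in the opposite one. Of the 66 negative genes, 50 of 65 tested had the same sign, where 2745 of all 5722 genes were negative. In that set 12 passed in the same direction and 0 in the opposite one. The difference of the interaction, untreated minus Cr41-treated, was tested over all 40 libraries and passed for 568 of 5822 genes (9.76%), 412 positive (7.08%) and 156 negative (2.68%). It passed for 94 of the 212 positive genes and 14 of the 66 negative ones. Both sets were chosen by the untreated interaction, which is a term of the difference. Their counts are therefore raised by the choice and add no separate test.

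The permeases differed from untreated cells in both directions. In treated cells 5 of 22 were positive and 7 negative, against 4.02% and 4.96% of all genes (median -0.56). TAT1 had interactions of 4.03 untreated and 3.91 Cr41-treated, and the difference of 0.17 was not significant (adjusted p = 0.85). BAP2 was reversed, at 1.87 untreated and -3.10 Cr41-treated, a difference of 5.02 (adjusted p = 1.3e-16), and PTR2 stood at 1.14 untreated and -2.16 Cr41-treated. DIP5, GNP1 and TAT2 were more negative in treated cells, at -4.82, -4.29 and -3.07, and each of these differences passed the test. AGP1, not called in untreated cells, was at -4.07 in treated cells. Among the stress genes, HSP30, BTN2 and HSP42 had interactions of -0.15, 0.14 and -0.02 in treated cells and differences of 4.46, 3.60 and 2.54 that passed. The stress list had 10 positive calls of 22 in treated cells (median 0.95), against 4.02% of all genes. The heat shock list had 1 of 20 (median 0.19), which is near that share of all genes. The iron list had 2 positive and 2 negative calls (median -0.1), against 6 positive untreated. Ribosome biogenesis had 1 positive and 0 negative (median -0.03), against 19 negative untreated. Aromatic amino acid biosynthesis had 0 positive and 5 negative (median -0.81). The shares of all genes were 4.02% positive and 4.96% negative.

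**Figure D5:**
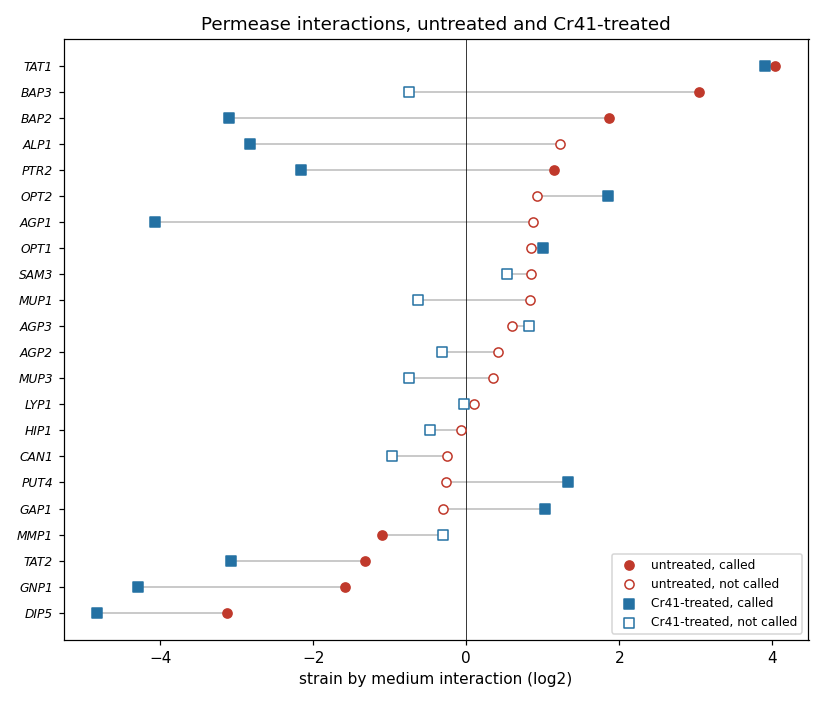
Strain by medium interaction (log2) of 22 permease genes in untreated (circles) and Cr41-treated (squares) cells, with called values filled. TAT1 lies at 4.03 in untreated and at 3.91 in treated cells, whereas BAP2 lies at 1.87 in untreated and at -3.10 in treated cells.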

How the data were processed

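Per the labels and methods, RNA from mid-log cells was extracted with hot phenol, depleted of rRNA and made into libraries with the ScriptSeq Complete Gold Yeast kit, then sequenced paired-end. The deposited values are estimated counts that the authors made with Salmon 0.13.1 (per the submitters' processing notes) against an S288c transcriptome index for both strains, so an RM11 read was counted where it fitted an S288c transcript. The version of that index is not given in the sources used here. The authors' files also hold TPM values and other columns, transcript lengths, which the authors deposited beside the counts. Estimated counts were rounded to whole numbers, and all 6661 transcripts entered the library totals. Of these, 5993 matched an R64 locus and 668 did not.

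Genes were filtered with filterByExpr and fitted with edgeR 4.0.16 (TMM, quasi-likelihood, 4 group means, the 20 untreated libraries). Values per library are TMM-scaled CPM, and a called gene passes 0.05 after Benjamini-Hochberg adjustment with a log2 value of at least 1 in size. The treated contrast used the other 20 libraries, and the difference of the 2 contrasts all 40. Every pair of replicates differed by more than sampling noise, and none was merged. Alternatives were DESeq2 1.42.0, limma 3.58.1 on log2(TPM + 1), RLE scaling, effective lengths as offsets, other filters and thresholds, a replicate block, a single fit over 40 libraries, and each library or replicate number left out. The fit was tested on simulated data.

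The gene lists, the rule for named genes and the motifs were chosen with earlier results of these data known. The rule took the 12 largest called interactions in each direction with a mean of at least 10 CPM in a group and no near-identical copy, up to 6 called members of each list, all genes of aromatic synthesis and catabolism, up to 5 genes in each direction called in opposite directions in both strains, and SED1, DIP5 and PDR5. The search for near-identical copies covered only transcripts with an R64 coding sequence, so transcripts without an R64 entry passed this rule unscreened. The lists of ribosome biogenesis and inositol and the motif CGGC were added after values had been seen. Any other gene was named after its values were seen. Lists are described by counts and medians, with no set test. Reads were not stated to be counted by strand, so overlapping genes cannot be separated.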

Additional observations from a re-analysis of the deposited data

Results flagged for a closer look

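In 262 sets of 5 libraries, a single library stood far from the other 4 in 21, where chance alone gives about 1 in 20. The largest share lay in RM11 YM library 5, which was low for HSP30 (24.7 CPM), BTN2 (26.2 CPM), SPI1 (120 CPM), HSP42 (273 CPM) and ATF1 (44.3 CPM) and high for ADH5 (117 CPM). S288c WYF library 4 was high for BAP3 (287 CPM) and PDR5 (616 CPM) and low for TAT2 (95 CPM) and ARO2 (158 CPM). RM11 WYF library 2 was high for R0040C (12.7 CPM) and HSP26 (58.4 CPM), and RM11 WYF library 5 was high for INO1 (5199 CPM) and FRE1 (28.5 CPM). S288c YM library 4 was low for YLL066W-B (75.5 CPM) and SFA1 (40.6 CPM). Single values far from their group were DIP5 in S288c YM library 2 (25.2 CPM), PDC5 in RM11 YM library 2 (40.8 CPM), QCR9 in S288c WYF library 5 (9.69 CPM), TRP1 in RM11 WYF library 3 (93.5 CPM) and PHA2 in RM11 YM library 1 (29.0 CPM).

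In 4 of the genes named by the rule the interaction passed in opposite directions with and without Cr41, and the difference, untreated minus Cr41-treated, passed its own test (edgeR, adjusted). It was 5.02 for BAP2, 2.84 for STR3, 3.28 for SNO1 and 2.86 for SIT1. STR3 stood at 1.12 in untreated and -1.68 in Cr41-treated cells, SNO1 at 1.84 and -1.40, and SIT1 at 1.57 and -1.24.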

How the results depend on the processing

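Counts of called genes without a fold threshold were 2017 for the untreated interaction, 2745 for S288c, 1021 for RM11, 2262 for the treated interaction and 1820 for their difference. With at least 10 counts in every library RM11 gave 72. Leaving out libraries gave 226 to 363 for the untreated interaction (negative calls 40 to 160, and 55.9% positive without replicate 4 of every group against 76.3%), 243 to 291 for S288c (lower calls 54 to 106, against 62), 100 to 139 for RM11, 471 to 598 for the treated interaction and 502 to 642 for the difference. Of 53 called named genes, 41 passed under every alternative. Direction changed for BDS1 in limma (0.04), without RM11 WYF libraries 1 and 2 (0.12) and without 4 libraries (0.08), for ASP3-1 in the last 2 settings (0.86 and 1.18) and for R0040C in both (0.86 and 0.86). These library sets were chosen after seeing the data, and the 4 libraries (also RM11 YM 5 and S288c WYF 4) gave 316 calls, 236 shared with the 278. With any count allowed, 59.9% of S288c calls were higher, against 75.6%. In limma 85.2% of calls for the untreated interaction were positive, and 56.9% for the treated one, against 44.7%. Without a fold threshold the edgeR shares were 52% and 58.4%, with 49.9% higher in S288c and 51.4% positive for the difference. In limma 56.4% of calls for the difference were positive, against 72.5%. Same-numbered replicates were not treated as pairs in the main fit, and the labels do not say whether they were. Correlations of their deviations between groups ran from -0.239 to 0.238, and 0 to 2 of 5 libraries correlated best with their own number. A replicate block gave 272 calls, 262 shared. Transcripts with few RM11 reads have poorly determined RM11 ratios, although the RM11 libraries overlapped those of S288c in depth. The cause of these moves was not tested.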

Other observations

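Among 13 genes of inositol and phospholipid synthesis, a list added after INO1 had been seen, 2 passed with a positive interaction, against 3.73% of all genes, INO1 and OPI3 (phospholipid methylation). OPI3 averaged 99.6 CPM in S288c WYF against 51.7 CPM in S288c YM, and 155 CPM in RM11 WYF against 165 CPM in RM11 YM (interaction 1.04 ± 0.15, edgeR adjusted p = 2.5e-05). The list median was 0.43. In Cr41-treated cells 7 of the 13 passed with a positive interaction, against 4.02% of all genes, with a median of 1.21.

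Of 32 respiration genes tested, 25 had a positive interaction, against 2943 of all 5684 genes, with a median of 0.28. The 1 that passed (QCR9) is at the background of 3.73%. In S288c 6 rose in WYF, against 3.38% of all genes, and in RM11 1 rose, against 0.721%.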
